A study of Mus musculus with 6 samples.

Results

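Coenzyme Q (CoQ) is a lipid of the inner mitochondrial membrane that takes up electrons from complexes I and II and from a set of smaller dehydrogenases, and passes them to complex III. The 8 genes described here were chosen by name: the dehydrogenases that reduce CoQ outside complexes I and II (Dhodh, Etfdh, Prodh, Gpd2, Sqor and Chdh) and the subunits of the electron transfer flavoprotein ETF (Etfa and Etfb). They are 8 of 18193 genes and 14 of 45101 probe sets on the array. The rule that names them uses no measured value, but they were chosen with earlier results of these data known. The mice were 3 mutants, B6.Alb/cre,Pdss2loxP/loxP, aged 176, 178 and 224 days, and 3 controls, B6.Pdss2loxP/loxP, aged 209, 213 and 140 days. All were male and all carried loxP-flanked Pdss2, whose product helps to build the side chain of CoQ, and the mutants also carried cre driven by the albumin promoter, which is active in hepatocytes. Whole liver RNA of each mouse was hybridized to 1 array. The genotypes were housed in different cages, so cage and genotype cannot be told apart, and in whole liver fewer cells of a type and less RNA per cell cannot be told apart. The labels call control 1 the concurrent control of mutant 3.

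Each of these enzymes is a flavoprotein that oxidizes its own substrate and hands the electrons on towards the quinone. ETF, a dimer of Etfa and Etfb, collects electrons in the matrix from acyl-CoA dehydrogenases of fatty acid and amino acid breakdown and from the dehydrogenases of dimethylglycine and sarcosine, and the oxidoreductase encoded by Etfdh passes them from ETF to CoQ. Sqor oxidizes hydrogen sulfide, Prodh proline, Chdh choline, Gpd2 glycerol 3-phosphate at the outer face of the inner membrane, and Dhodh dihydroorotate in pyrimidine synthesis. Human defects of ETF or of its oxidoreductase cause multiple acyl-CoA dehydrogenase deficiency, in which fatty acid oxidation in liver and muscle fails.

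The start regions of the genes that make up the ETF route are shown first, because all of them read lower on average in mutants, and that of Prodh beside them, because it read higher. Each window runs from 250 bases before to 50 bases after the start of the gene on mouse build GRCm38.p6, written 5′ to 3′ on the strand of the gene. Sequences are those of RefSeq, whose table held 10 windows for 7 of the 8 genes. Capitals mark the core of the consensus of NRF1, a transcription factor of nuclear genes for mitochondrial proteins (GCGCATGC), and the CCAAT box, both searched on both strands.
Etfdh, chr3:79628718-79629017, minus strand: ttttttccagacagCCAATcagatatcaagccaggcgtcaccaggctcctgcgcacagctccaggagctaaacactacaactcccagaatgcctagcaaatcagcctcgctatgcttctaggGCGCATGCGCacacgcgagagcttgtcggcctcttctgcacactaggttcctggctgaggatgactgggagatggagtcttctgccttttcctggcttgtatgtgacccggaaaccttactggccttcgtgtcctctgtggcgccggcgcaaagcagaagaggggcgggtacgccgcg
Etfa, chr9:55512194-55512493, minus strand: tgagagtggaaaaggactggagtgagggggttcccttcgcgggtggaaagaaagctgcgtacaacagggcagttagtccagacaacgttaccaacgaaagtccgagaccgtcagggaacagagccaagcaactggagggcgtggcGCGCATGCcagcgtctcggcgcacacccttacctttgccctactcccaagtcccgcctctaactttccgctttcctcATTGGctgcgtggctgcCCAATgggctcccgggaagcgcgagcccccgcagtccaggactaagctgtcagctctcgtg
Etfb, chr7:43443822-43444121, plus strand: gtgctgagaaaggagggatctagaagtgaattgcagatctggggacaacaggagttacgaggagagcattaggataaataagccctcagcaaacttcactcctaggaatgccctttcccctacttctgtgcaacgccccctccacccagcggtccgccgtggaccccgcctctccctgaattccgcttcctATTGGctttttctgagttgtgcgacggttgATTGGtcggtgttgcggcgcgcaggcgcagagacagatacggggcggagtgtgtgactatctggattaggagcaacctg
Prodh, chr16:18089141-18089440, minus strand: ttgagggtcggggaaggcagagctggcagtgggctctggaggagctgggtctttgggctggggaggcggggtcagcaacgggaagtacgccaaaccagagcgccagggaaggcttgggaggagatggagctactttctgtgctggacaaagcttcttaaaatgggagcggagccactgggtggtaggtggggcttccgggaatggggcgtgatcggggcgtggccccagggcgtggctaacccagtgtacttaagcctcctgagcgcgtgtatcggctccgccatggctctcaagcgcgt

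The NRF1 core occurred in 2.71% of the 32851 windows of the table. It was found in the window of Etfdh, as 2 overlapping matches in the palindromic run in capitals, and in that of Etfa, with 1 match. CCAAT, present in 37.4% of all windows, had 1 match in the window of Etfdh and 2 matches each in those of Etfa, Etfb and Sqor. The GC box GGGCGG, present in 35.7% of all windows, had 1 match each in the windows of Etfdh and Etfb and 2 matches in 1 window each of Gpd2 and Chdh. The E-box CACGTG, present in 7.15% of all windows, had 0 matches in the 10 windows of these genes. None of the 4 motifs was found in the printed window of Prodh. The same held for other windows of Gpd2 and Chdh. Etfb, Sqor, Gpd2 and Chdh, which read lower on average in mutants, had no NRF1 core in their windows. The matches are letters in a window and were not tested for binding.

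Pdss2, the deleted gene, read 6.94, 6.88 and 7.05 in mutants, against 7.46, 7.47 and 7.56 in controls on its brightest probe set, in log2 units as deposited and, as throughout, in the order of the labels' replicate numbers. All mutants lay below all controls, at 68.7% of the control level, with a difference of -0.54 (SE 0.17, adjusted p = 0.0792). Its other probe sets differed by 0.35 and 0.40 with overlapping groups. No source used here places these probe sets against the deleted exon, so they do not check the deletion. By quantitative PCR, the study itself reports a substantial knock-down of Pdss2 in the liver of each mutant of this genotype tested for it. Its methods take the RNA for that test and for the arrays from mice of its mitochondrial studies. Actb differed by 0.06 (adjusted p = 0.842). Every difference in this text is mutant minus control on the log2 scale, by the sample labels. The study's text describes gene sets of energy metabolism, fatty acid metabolism included, as higher in these mutants. That is a measure over whole pathways and not over single genes, and its direction is opposite to that of the mean differences read here for the ETF subunits and the ETF oxidoreductase. The study's text does not list the genes of its sets, so whether the ETF genes belong to them is not known here. The median difference over all genes was 0.17 as deposited, 0.06 once arrays were quantile normalized and 0.01 after subtraction of array medians, and each difference below stands against that shift.

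Among the 8 genes Etfa, Etfdh and Sqor read lower in mutants 2 and 3 than in mutant 1 and every control. Etfb read below every control in all 3 mutants, and Prodh read high in all 3 mutants. The 95% intervals of Chdh, Gpd2, Dhodh and Etfdh included 0. With 1 probe set per gene, the brightest, 1 of the 8 passed the test as higher (Prodh) and 0 as lower, while 4.92% of all genes were called higher and 4.11% lower at an adjusted p under 0.05 from limma. Unadjusted, 3 of the 8 lay under a p of 0.05 as lower, against 12.6% of all genes, and 1 as higher, against 18.4%. With every probe set in its own test, 0 of the 14 were called in either direction, against 1.25% of all probe sets called higher and 0.746% called lower. Unadjusted, 5 of the 14 lay under a p of 0.05 as lower, against 9.54% of all probe sets, and 1 as higher, against 15.7%. The groups did not overlap for 5 of the 14 probe sets, against 31.9% of all probe sets, and for 4 of the 8 genes, against 37.4% of all genes. The 8 genes had a median difference of -0.58, against 0.17 over all genes, and the 14 probe sets one of -0.35.

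**Figure D1:**
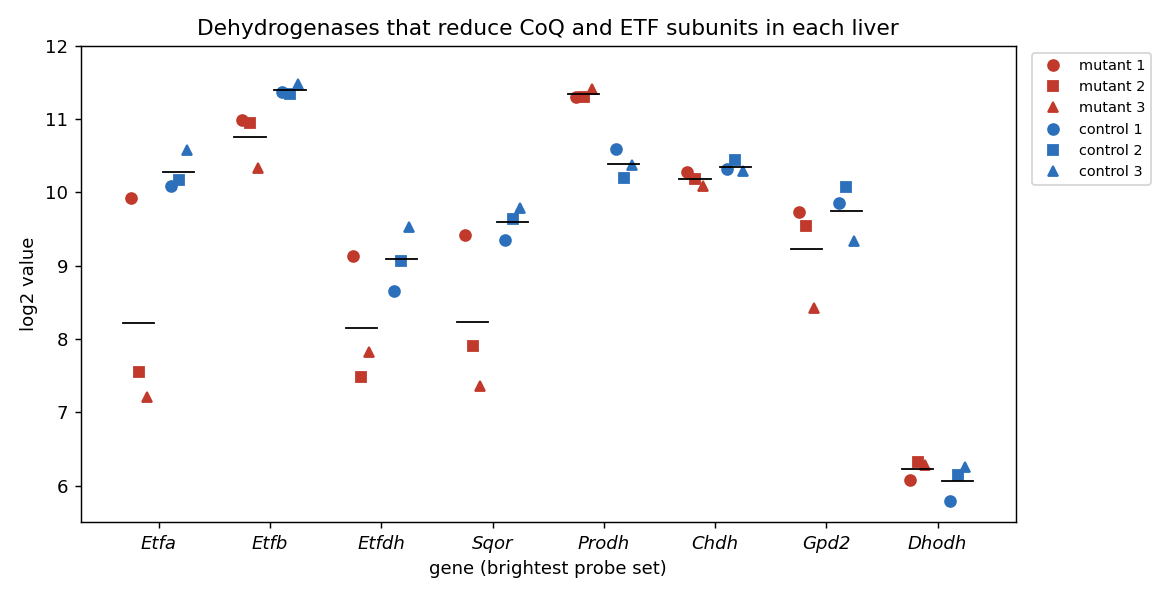
Log2 value (vertical axis) of the brightest probe set of each of the 8 genes (horizontal axis) in mutants 1 to 3 (red circle, square and triangle) and controls 1 to 3 (blue circle, square and triangle), with bars for group means. Mutants 2 and 3 lie below mutant 1 and the controls for Etfa, Etfdh and Sqor, and all 3 mutants lie above the controls for Prodh. Heights of different genes are not comparable, since each comes from its own probes.

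Etfa, the alpha subunit of ETF, had the largest difference of the 8. It read 9.92, 7.55 and 7.21 in mutants, against 10.09, 10.18 and 10.58 in controls. Mutant 1 lay just under the controls, while mutants 2 and 3 lay more than 2 log2 units under them. The mean was 8.22 ± 1.48 in mutants and 10.28 ± 0.26 in controls (SD, n = 3 each), a difference of -2.06 (SE 0.64, 95% interval -3.54 to -0.58), or 24.0% of the control level. It did not pass the test (adjusted p = 0.0763), and the spread among mutants, 2.71 log2 units from lowest to highest, was wider than the difference. Without mutant 1 the difference was -2.91 with an adjusted p of 0.00467, and without any of the other mice it lay between -2.15 and -1.55 with an adjusted p of 0.130 to 0.209.

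Etfb, the beta subunit, which with Etfa holds the FAD of ETF, read 10.99, 10.95 and 10.33 in mutants, against 11.38, 11.35 and 11.48 in controls. All mutants lay below all controls, here with mutant 3 apart from the other mutants. The mean was 10.76 ± 0.37 in mutants and 11.40 ± 0.07 in controls (SD, n = 3 each). The difference was -0.65 (SE 0.23, adjusted p = 0.101), at 63.9% of the control level. Each ETF subunit is read by a single probe set, so neither has a second reading on the array.

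Etfdh, the iron-sulfur flavoprotein that links ETF to CoQ, read 9.14, 7.49 and 7.82 in mutants, against 8.66, 9.07 and 9.53 in controls. The groups overlapped, because mutant 1 lay above controls 1 and 2, whereas mutants 2 and 3 lay below every control. The difference was -0.94 (SE 0.44, adjusted p = 0.186), at 52.2% of the control level, and it did not pass the test. Without mutant 1 it was -1.43 (adjusted p = 0.0245), without mutant 2 it was -0.61 (adjusted p = 0.422), and without any of the other mice it lay between -1.15 and -0.71 (adjusted p = 0.236 to 0.386). The other probe set of Etfdh read 4.64, 4.10 and 4.74 in mutants and 4.38, 4.54 and 4.39 in controls, a difference of 0.05, and the mean of both probe sets differed by -0.44. The dim probe set lay under the lower quartile of the array on all 6 arrays, and the files give no detection calls.

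For Sqor, sulfide:quinone oxidoreductase, mutant 1 again stood with the controls. Its brightest probe set read 9.42, 7.90 and 7.36 in mutants, against 9.35, 9.64 and 9.79 in controls. Mutant 1 lay just above control 1, and mutants 2 and 3 lay more than 1 log2 unit below every control. The difference was -1.37 (SE 0.48, 95% interval -2.47 to -0.26, adjusted p = 0.0997), at 38.8% of the control level, and it did not pass the test. Without mutant 1 it was -1.96 (adjusted p = 0.00621), and without any of the other mice it lay between -1.49 and -0.93 (adjusted p = 0.161 to 0.254). On the other probe set, which lay under the lower quartile on 3 of the 6 arrays, Sqor read 4.98, 5.87 and 5.36 in mutants and 4.79, 4.69 and 5.72 in controls, a difference of 0.34 (adjusted p = 0.589 over all probe sets), and the mean of both differed by -0.51.

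Prodh, which carries out the first step of proline breakdown, was the member that rose. It read 11.30, 11.30 and 11.42 in mutants, against 10.59, 10.19 and 10.38 in controls. All 3 mutants lay above all 3 controls and within 0.12 log2 units of each other. The mean was 11.34 ± 0.07 in mutants and 10.38 ± 0.20 in controls (SD, n = 3 each), a difference of 0.96 (SE 0.19, 95% interval 0.52 to 1.39), or 1.94-fold higher. The adjusted p was 0.0306 over all genes and 0.0529 over all probe sets. The call over genes was also lost after subtraction of array medians (difference 0.79, adjusted p = 0.0522). The 1.94-fold difference kept its direction without any single mouse (0.86 to 1.06), and the adjusted p was 0.0261 without mutant 1 but 0.0745 without mutant 2, 0.0927 without mutant 3, 0.0935 without control 1, 0.135 without control 2 and 0.0691 without control 3.

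Chdh, which oxidizes choline to betaine aldehyde, read 10.28, 10.18 and 10.09 in mutants, against 10.32, 10.45 and 10.29 in controls. All mutants lay below all controls, but mutant 1 and control 3 were less than 0.01 log2 units apart. The difference was -0.17 (SE 0.17, 95% interval -0.57 to 0.23, adjusted p = 0.550), and -0.33 after subtraction of array medians. The probe set of Chdh is of a kind that can share probes with other transcripts. So are the probe sets of Gpd2 and Dhodh that differed by -0.92 and -0.18. Among list genes named below, the same holds for the brightest probe sets of Acad11, Acadsb, Cbs, Sdha, Gpd1 and Cyb5r3.

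Gpd2, the mitochondrial glycerol 3-phosphate dehydrogenase, read 9.74, 9.54 and 8.43 in mutants, against 9.85, 10.07 and 9.34 in controls on its brightest probe set. The groups overlapped and mutant 3 was the lowest of the 6. The difference was -0.52 (SE 0.37, 95% interval -1.37 to 0.33, adjusted p = 0.376), and -0.115 without mutant 3. A dimmer probe set read 6.60, 5.45 and 5.97 in mutants and 7.02, 7.33 and 7.05 in controls, with all mutants below all controls (difference -1.13, adjusted p = 0.0798 over all probe sets). The remaining probe sets of Gpd2 differed by -0.92 and -0.04. All 4 thus read lower in mutants on average, by amounts between -1.13 and -0.04, and 0 of the 4 passed the test.

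Dhodh, the enzyme of pyrimidine synthesis that works at the inner membrane, read 6.08, 6.32 and 6.28 in mutants, against 5.79, 6.15 and 6.26 in controls. The groups overlapped, with a difference of 0.16 (SE 0.20, 95% interval -0.30 to 0.63, adjusted p = 0.631), and 0.02 without control 1. That sign did not hold after quantile normalization, with centred arrays or with the mean of its probe sets, where the difference was between -0.01 and 0.00. Its other probe set read 5.45, 5.62 and 5.82 in mutants and 5.84, 5.84 and 5.74 in controls, a difference of -0.18. Of the 4 genes with more than 1 probe set, Dhodh, Etfdh and Sqor had probe sets of opposite sign.

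**Figure D2:**
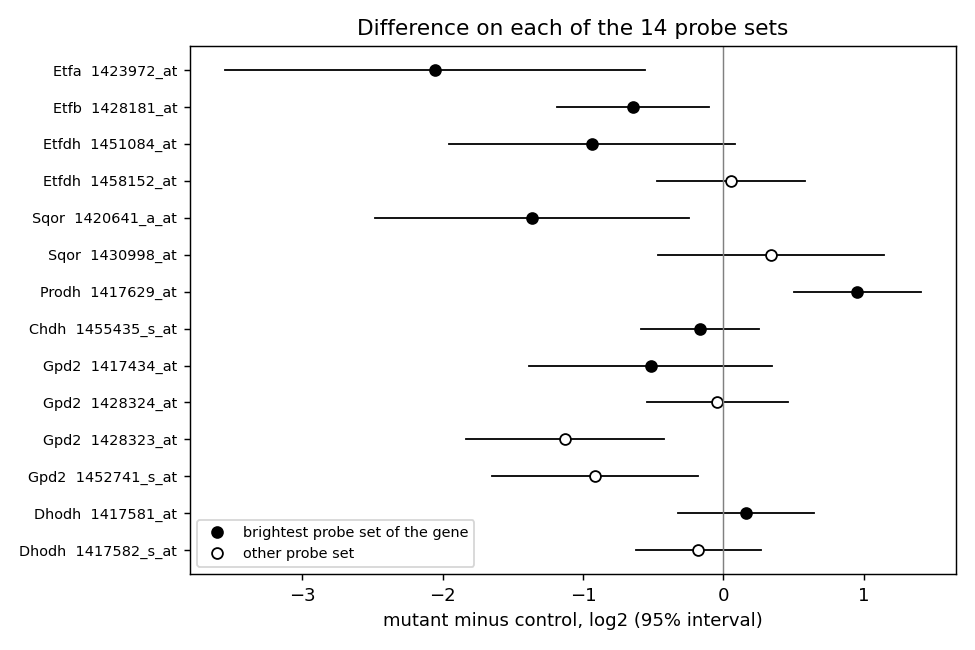
Mutant minus control difference in log2 units (horizontal axis) for each of the 14 probe sets (vertical axis), with 95% intervals from the fit over all probe sets. Filled points are the brightest probe set of each gene and open points the others. The points run between -2.06 for Etfa and 0.96 for Prodh, and the dimmer probe sets of Sqor and Etfdh lie on the other side of 0 from the brightest.

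The mutants differed among themselves. Mutant 1 lay within the range of the controls for 4 of the 8 genes (Dhodh, Etfdh, Gpd2 and Sqor), below it for 3 and above it for Prodh. Mutant 2 lay below every control for 5 genes and mutant 3 for 6. Against the control mean, mutants 1 to 3 differed by -0.36, -2.74 and -3.08 for Etfa, by 0.05, -1.60 and -1.26 for Etfdh and by -0.18, -1.69 and -2.23 for Sqor. For Prodh the 3 mutants were alike, with 0.92, 0.91 and 1.03. The difference of mutant 3 from its concurrent control alone was -2.89 for Etfa, -1.05 for Etfb, -0.83 for Etfdh, -1.99 for Sqor and 0.83 for Prodh. Completeness of the labelled RNA was read from the Gapdh signal at its 3′ probe set minus that at its 5′ probe set. A higher value stands for less complete RNA. This measure was lower in all mutants and nearest to the controls in mutant 1. It was 0.45, -1.06 and -1.78 in mutants, against 2.31, 2.02 and 2.30 in controls (exact two-sided permutation test, p = 0.1, the smallest that 3 mice against 3 allow). The same measure for Actb was 2.60, 3.95 and 4.50 in mutants and 3.82, 3.90 and 3.11 in controls (exact p = 0.8). The part of RNA quality in these values was not tested.

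Markers of the cells of liver were read on the same arrays. Of 9 hepatocyte markers 0 passed the test, with a summed level (log2 of the summed signals) of 16.03 to 16.35 in mutants and 16.27 to 16.34 in controls. Their differences ran from -0.64 for Fgb to 0.56 for G6pc, with a median of -0.22. Alb, the gene of serum albumin, differed by -0.25 and read 14.20, 13.65 and 13.40 in mutants, against 13.91, 14.04 and 14.06 in controls. Beside the counts of markers that follow, 4.92% of all genes were called higher. Sinusoidal endothelium had 2 of 8 markers higher (Stab2 by 1.82 and Stab1 by 1.39), with a summed level of 11.70 to 12.43 in mutants and 10.83 to 11.56 in controls. Lyve1 and Oit3 did not pass, at 0.69 and 0.62, nor did Kdr, Pecam1, Clec4g and Cdh5, at 0.17, 0.20, 0.11 and -0.16. Kupffer cells had 1 of 8 higher (Clec4f by 1.17), with a summed level of 11.28 to 12.05 in mutants and 10.20 to 11.24 in controls. Bile duct had 1 of 4 measured markers higher (Krt19 by 1.08) and skeletal muscle 1 of 3 (Myh4 by 0.92). The lists for stellate cells, lymphocytes, erythroid cells, kidney and adipocytes had 0. The part of other cell types in the values of the 8 genes was not tested.

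Genes of the pathways around these dehydrogenases, before or after them, and of other enzymes that reduce quinones were read from 9 lists. Of 80 genes 74 were measured, of which 1 was called higher and 6 lower, against 4.92% and 4.11% of all genes, and the median difference was -0.35. Among the 13 dehydrogenases that feed ETF, 0 were higher and 2 were lower, with a median of -0.10. Acadl, the long-chain acyl-CoA dehydrogenase, read 9.44, 8.36 and 7.96 in mutants, against 10.27, 10.44 and 10.54 in controls. It fell by 1.83 on the log2 scale (adjusted p = 0.0308), while its other probe set differed by -0.06. Acad11, of long-chain and 4-hydroxy fatty acids, fell by 1.15 (adjusted p = 0.0458), with -0.56 on its other probe set. Acadm and Acadvl, the medium-chain and very-long-chain enzymes, did not pass, at -0.97 (adjusted p = 0.0539) and -0.93 (adjusted p = 0.0767), although all mutants lay below all controls for both. Acad8 and Acadsb, of branched-chain breakdown, differed by -0.80 (adjusted p = 0.119, other probe set -0.98) and 0.80 (adjusted p = 0.123). Dmgdh and Sardh, which oxidize dimethylglycine and sarcosine, differed by 0.14 and 0.00, with -0.94 on the other probe set of Sardh (adjusted p = 0.269 over all probe sets), and Ivd and Gcdh, of leucine and lysine breakdown, by 0.14 and 0.11, with 0.15 on the other probe set of Ivd. Etfrf1, a regulator that acts on ETF, fell by 1.09 (adjusted p = 0.0489, other probe set 0.02), the 1 gene called of 6 in flavin supply and ETF assembly.

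Sulfide oxidation had 0 of 8 measured genes past the test and a median of -0.68. Ethe1, the persulfide dioxygenase that follows Sqor, read 8.47, 6.45 and 6.16 in mutants, against 8.53, 8.46 and 9.14 in controls, with mutant 1 among the controls as for Sqor (difference -1.68, adjusted p = 0.0917). Tst, a thiosulfate sulfurtransferase, differed by -1.44 (adjusted p = 0.0522) and Suox, sulfite oxidase, by -1.07 (adjusted p = 0.0767), each with all mutants below all controls. Cbs, which makes cystathionine and can release sulfide, differed by 0.77 (adjusted p = 0.0923, other probe set 0.63) with all mutants above. Without mutant 1, Ethe1, Tst and Suox passed the test (adjusted p = 0.00497, 0.00615 and 0.0198), and without any of the other mice their adjusted p lay between 0.0969 and 0.246, with Suox at -0.70 without mutant 3.

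Proline and hydroxyproline metabolism had 1 of 8 measured genes higher and 0 lower. Prodh2, the hydroxyproline dehydrogenase, read 10.07, 10.93 and 10.86 in mutants, against 9.70, 9.38 and 9.41 in controls, and rose by 1.12 (adjusted p = 0.0434). Aldh4a1, which takes the products of Prodh and Prodh2 one step on in the mitochondrial matrix, differed by 0.68 (adjusted p = 0.0575), with all mutants above all controls. Oat, which enters the same path from ornithine, differed by -0.41 (adjusted p = 0.314), and Pycrl, a reductase of proline synthesis, by -0.61 (adjusted p = 0.0771).

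**Figure D3:**
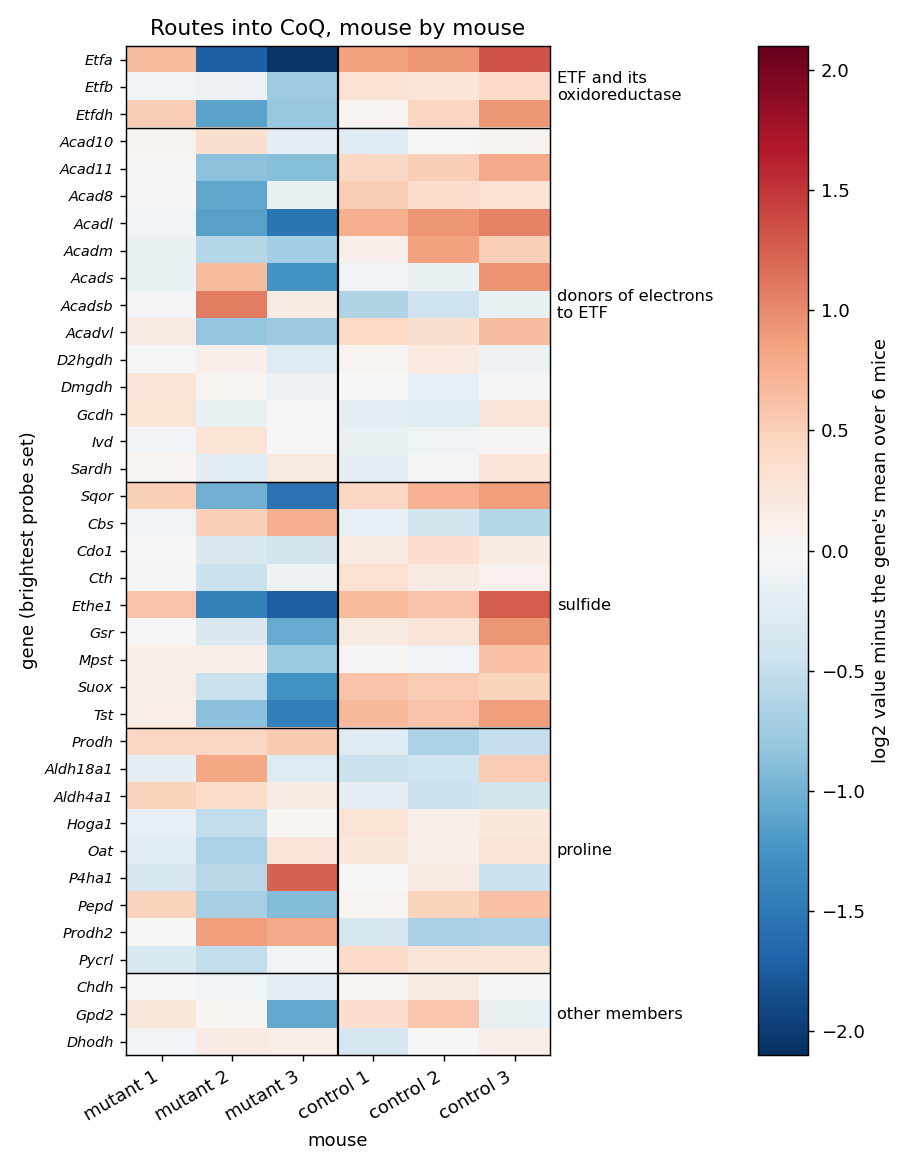
Log2 value minus the mean of the gene over the 6 mice (colour, blue low and red high) for the 8 genes and every measured gene of 3 lists (vertical axis), in each mutant and control (horizontal axis). Within their own rows, Etfa, Etfdh, Sqor, Acadl, Ethe1 and Tst, among others, are bluest in mutants 2 and 3, while Prodh is red in all 3 mutants.

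Of 10 measured genes between choline and glycine, 0 were higher and 2 were lower. Pipox, which oxidizes sarcosine and pipecolate in peroxisomes, fell by 1.25 (adjusted p = 0.0282), and Slc44a1, a choline transporter, by 1.53 (adjusted p = 0.0389, other probe sets between -1.28 and 0.28). Bhmt, which uses the betaine that Chdh leads to, differed by -0.21 (adjusted p = 0.544). Complex II, which also reduces CoQ, had 0 of 7 genes of its subunits and assembly factors past the test. Its flavoprotein subunit Sdha differed by -1.53 (adjusted p = 0.0551, other probe sets -0.87, 0.11 and -0.89) and its iron-sulfur subunit Sdhb by 0.09 (adjusted p = 0.766). Among 5 other quinone reductases, Nqo2, a cytosolic flavoprotein, fell by 0.99 (adjusted p = 0.0340), with -1.13 and -1.15 on its other probe sets. The others did not pass, and they did not share a direction. Aifm2 differed by 0.87 (adjusted p = 0.0629, other probe sets 0.05 and -0.31), with all mutants above all controls. Cyb5r3 differed by -1.89 (adjusted p = 0.104, other probe sets -0.94, 0.43 and 0.43), Aifm1 by -0.54 and Nqo1 by -0.35. Pyrimidine synthesis around Dhodh had 0 of 10 genes past the test and a median of 0.03, and the glycerol phosphate shuttle around Gpd2 had 0 of 7 and a median of 0.20. Gpd1, the cytosolic partner of Gpd2, differed by 0.20 on its brightest probe set (adjusted p = 0.566) and by -1.22, -0.76 and -0.18 on the others. Each of the 7 calls in these lists was lost when any of mutant 2, mutant 3 or the 3 controls was left out, and without mutant 1 there were 3 higher and 20 lower. Subtraction of array medians ended the call of Prodh2 (0.96, adjusted p = 0.0629), and quantile normalization those of Acad11 (adjusted p = 0.0550) and Etfrf1 (adjusted p = 0.0637). With probe sets averaged within each gene, 0 were higher and 3 lower (Nqo2, Pipox and Sdha), and Acadl, Slc44a1 and Etfrf1 differed by -0.94, -0.69 and -0.53 without passing.

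**Figure D4:**
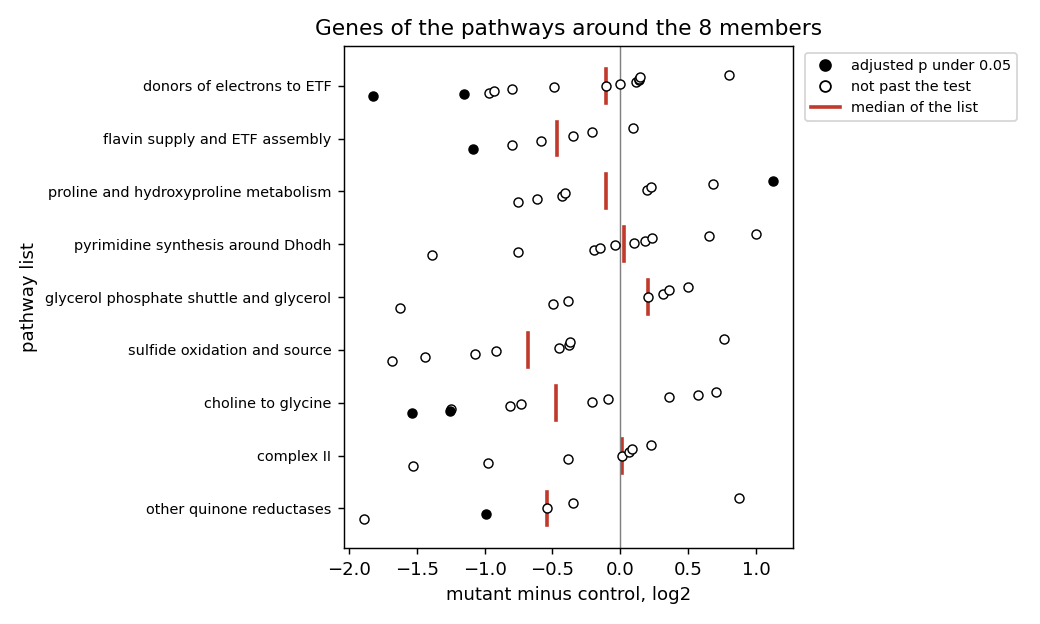
Mutant minus control difference in log2 units (horizontal axis) for the 74 measured genes of the 9 lists (vertical axis), 1 point per gene, with a red line at the median of each list. Filled points passed an adjusted p under 0.05 over all genes, with Prodh2 to the right of 0 and Pipox, Acadl, Acad11, Nqo2, Slc44a1 and Etfrf1 to the left.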

How the data were processed

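Liver RNA of 3 mutants and 3 controls was read on 1 Affymetrix array per mouse, with groups as labelled. The authors normalized probe intensities in dChip, summarized them by the PM-only model and deposited 1 log2 value per probe set and array. Probe set names are of a mouse array, although the methods name one of C. elegans. The sources used here do not give the dChip version. Values ran from 0 to 14.63, with 40 values of exactly 0, none of them in the 14 probe sets of the 8 genes. No detection calls came with them, so signal over background is unknown, and 6 arrays limit the precision.

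Probe sets were named through the platform annotation: 34958 carry 1 symbol, 932 several and 9211 none. After removal of 64 control probe sets, 45037 probe sets, and separately 18193 genes by their brightest probe set, were compared in R 4.3.3 by limma 3.58.1 (lmFit, eBayes), with Benjamini-Hochberg adjustment over each table and a call at an adjusted p under 0.05. SE and 95% intervals of a gene are from the table of genes. "Rose" and "fell" are used of calls alone. The code was tested on simulated data. Values outside the fit were compared by exact permutation over the 20 assignments of 3 mice against 3. No source says whether the mice share litters, so p-values measure the spread among these mice.

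The members and lists were chosen with earlier results of these data known. Named are all members, Pdss2, Actb, up to 4 called genes per list and the 3 genes most like the members in pattern. Cell type lists appear as summaries with their called markers named. Alb and the other markers and genes of the lists named without a call were named after their values were seen. Alternatives were median centring, quantile normalization, a filter on dim probe sets, averaged probe sets, eBayes with trend and robust options, age, the replicate number as a block, and leaving out each mouse. Motifs were counted in the RefSeq windows on both strands. Figures were drawn with matplotlib 3.10.9.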

Additional observations from a re-analysis of the deposited data

Results flagged for a closer look

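The bacterial BioB transcript, a control added before hybridization and not part of any comparison above, averaged 10.41, 11.04 and 10.70 log2 units over its probe sets in mutants, against 9.13, 8.93 and 8.67 in controls. It was higher on the mutant arrays by 1.81 (exact two-sided permutation test, p = 0.1, the smallest that 3 mice against 3 allow), as measured in data outside the comparison of liver genes. Its part in the values of the 8 genes was not tested.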

How the results depend on the processing

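Over all probe sets, 561 were higher and 336 lower as deposited. These counts became 150 and 150 with median centring, 1587 and 1463 among bright probe sets, 864 and 549 with the trend and robust options, and 1392 and 1123 with age as a covariate, and quantile normalization left 222 lower. Leaving out 1 mouse gave 0 to 1289 higher and 0 to 2551 lower. Over all genes, the 895 higher and 748 lower became 1218 and 1802 without mutant 1, and without any other single mouse at most 169 were higher and 86 lower. Of the probe sets of the 8 genes, 0 were higher and 0 lower as deposited. That of Prodh was higher among bright probe sets, with the trend and robust options and with age. A probe set of Gpd2 was lower among bright probe sets, and a different probe set of Gpd2 was lower with age. Leaving out 1 mouse gave 0 to 1 higher and 0 to 4 lower. Of the 8 genes, 0 were higher with median centring, against 1 as deposited, and leaving out 1 mouse gave 0 to 1 higher and 0 to 3 lower, with the 3 lower ones found without mutant 1. Dhodh turned to -0.0049 with quantile normalization, -0.001 with median centring and -0.0088 with the mean of its probe sets. With the replicate block, 0 probe sets were higher and 0 lower over the whole array (7935 at an unadjusted p under 0.05), 0 of the 8 genes were higher and the adjusted p of Prodh was 0.109. The labels tie mutant 3 to control 1, which the replicate numbers do not. Deviations from the group mean correlated at 0.06, -0.50 and -0.56 for same-numbered mice, and at 0.45 for mutant 3 and control 1. With 3 mice per group, these correlations cannot show whether mice were handled in pairs. The other 7 genes kept the sign of their difference under every alternative run. The cause of these changes was not tested.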

Other observations

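The genes whose pattern over the 6 arrays lay closest to the mean pattern of the 8 members were Tbcd, a tubulin folding cofactor (mean absolute difference of centred log2 values 0.04), Samm50, a subunit of the machinery that inserts proteins into the outer mitochondrial membrane (0.05), and Colec11, a collectin secreted by liver (0.05). All 3 are read here by probe sets of kinds that can share probes with other transcripts. The mean pattern of the members, each centred on its mean, was 0.28, -0.43 and -0.71 in mutants, against 0.17, 0.31 and 0.38 in controls. This likeness is a description over 6 arrays and was chosen as the closest among all genes.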
